A study of Mus musculus with 28 samples.

Results

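The genes described here encode enzymes and chaperones that fold procollagen in the endoplasmic reticulum and proteins that remove its carboxyl-terminal propeptide outside the cell. They are 10 listed symbols, looked up by name among the 56980 genes of the bulk count table and among the genes of the single-cell matrices, and all 10 were present in both. The prolyl 4-hydroxylase subunits are *P4hb* (ENSMUSG00000025130), *P4ha1* (ENSMUSG00000019916), *P4ha2* (ENSMUSG00000018906), and *P4ha3* (ENSMUSG00000051048). The chaperones and isomerases are *Serpinh1* (ENSMUSG00000070436), *Fkbp10* (ENSMUSG00000001555), and *Pdia6* (ENSMUSG00000020571). The genes of propeptide removal are *Bmp1* (ENSMUSG00000022098), *Pcolce* (ENSMUSG00000029718), and *Pcolce2* (ENSMUSG00000015354). All 10 passed the filter that left 12673 genes for testing in bulk, a mean normalized count of at least 100 over the 25 libraries. *P4ha3* passed it only through its counts in the fistulas, so it had to differ once it passed, and counts and medians over the 10 genes are descriptions that include it.

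The vessels are jugular veins of C57BL/6 mice whose cut end was sewn to the side of the carotid artery to make an arteriovenous fistula (AVF), and jugular veins from the opposite side of the neck as controls. All mice had a subtotal nephrectomy before the AVF, so the contralateral veins carry the kidney injury too. Bulk RNA sequencing had 1 library per vessel and compared AVFs with contralateral veins at 3 time points, which asks how the RNA of the vein wall differs after it is joined to an artery. Single-cell RNA sequencing had 1 library each of pooled contralateral veins, early AVFs, and late AVFs, whose labels give no day.

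In bulk, the 7 contralateral veins came from 5 female and 2 male mice and had 20254173 to 29913427 counts. The 8 early AVFs, labeled day 3, came from 3 female and 5 male mice and had 23676215 to 67457501 counts. The 5 mid AVFs, labeled day 10, came from 3 female and 2 male mice and had 27021483 to 33395623 counts. The 5 late AVFs, labeled day 21, came from 3 female and 2 male mice and had 27855449 to 36879746 counts. The labeled days are nominal, since the study's methods describe a spread of harvest days within each group, widest in the early one. Levels in bulk are CPM, the gene's counts over the effective library size of the fit, and bulk CPM is compared only within a gene because it is not adjusted for transcript length.

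As background, newly made procollagen chains are hydroxylated on proline by an enzyme of 2 alpha and 2 beta subunits, and this hydroxylation keeps the collagen triple helix stable at body temperature. A collagen-specific chaperone and several isomerases assist the folding in the endoplasmic reticulum. After secretion, a metalloproteinase helped by enhancer proteins cuts off the carboxyl-terminal propeptide, which allows the molecules to assemble into fibrils.

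Promoter sequences, from 250 bases before to 50 after the annotated start, were found in RefSeq (build GRCm38.p6) for 8 of the 10 genes, all but *Fkbp10* and *Bmp1*. They are shown for *P4ha3* and *Pcolce2*, the only genes of the 10 that passed the test of difference at all 3 time points, and for *Pdia6*, the only 1 with the endoplasmic reticulum stress element. The regions, all on the plus strand, are chr7:100285270-100285569 for *P4ha3*, chr9:95637378-95637677 for *Pcolce2*, and chr12:17266339-17266638 for *Pdia6*. Capitals mark the GC box (GGGCGG on either strand) in *P4ha3* and *Pcolce2* and the stress element (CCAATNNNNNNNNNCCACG on either strand) in *Pdia6*.
P4ha3: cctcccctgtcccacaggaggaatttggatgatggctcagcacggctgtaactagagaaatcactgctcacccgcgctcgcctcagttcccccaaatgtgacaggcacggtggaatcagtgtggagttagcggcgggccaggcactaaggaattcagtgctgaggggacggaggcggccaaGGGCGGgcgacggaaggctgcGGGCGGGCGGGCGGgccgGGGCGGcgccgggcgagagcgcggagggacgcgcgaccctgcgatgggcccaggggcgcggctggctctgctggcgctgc
Pcolce2: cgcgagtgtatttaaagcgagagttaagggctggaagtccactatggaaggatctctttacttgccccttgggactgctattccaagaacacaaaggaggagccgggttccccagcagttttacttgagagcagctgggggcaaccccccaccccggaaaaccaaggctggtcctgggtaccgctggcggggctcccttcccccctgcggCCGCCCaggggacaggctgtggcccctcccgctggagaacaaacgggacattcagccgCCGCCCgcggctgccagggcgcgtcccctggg
Pdia6: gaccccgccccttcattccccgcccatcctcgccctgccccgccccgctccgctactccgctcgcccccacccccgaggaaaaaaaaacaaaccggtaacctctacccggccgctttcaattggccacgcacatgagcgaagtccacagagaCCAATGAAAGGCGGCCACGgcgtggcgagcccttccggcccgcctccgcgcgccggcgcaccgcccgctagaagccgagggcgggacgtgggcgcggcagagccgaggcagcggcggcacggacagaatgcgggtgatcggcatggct

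The GC box was present in all 8 promoters, with 5 matches in *P4ha3*, 5 in *Pdia6*, 2 in *Pcolce2*, and 1 in *Serpinh1*, and in 35.7% of all 32851 RefSeq promoters. The stress element was present in 0.119% of all promoters (39). CCAAT was present in *P4hb* and *Pdia6* (37.4% of all promoters), and the TATA box TATAAA in *P4ha1* (13.6%). The E-box CACGTG (7.15% of all promoters), the cyclic AMP response element TGACGTCA (1.79%), the AP-1 element TGANTCA (7.81%), and the heat shock element of GAA, TTC, and GAA with 2 free bases between them (0.603%) were present in 0 of the 8. A match describes the letters of the window and shows neither binding nor a cause of any level given below.

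Several bulk libraries stood apart from the rest of their group. The share of the 12673 genes with no count was 22.5% in contralateral vein 28, 17.5% in vein 31, 15.7% in vein 632, and 13.5% in vein 34, against 2.86% to 7.7% in the other 3 veins and 0.0789% to 4.7% in the AVFs. *P4ha3* had 0, 2, 0, and 4 counts in these 4 veins, in that order, and 6, 0, and 79 in veins 27, 35, and 633, so part of its absence from contralateral veins lies in libraries that lack many genes. *P4ha2* had 7 counts in vein 28, and *Bmp1* had 4 in vein 31. Early AVF 7 had the lowest level of its group for 9 of the 10 genes, all but *Pcolce2*.

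*P4ha3* and *Pcolce2* differed most, in opposite directions: *P4ha3* was nearly absent from contralateral veins and present in every AVF, while *Pcolce2* was lower in every AVF than in every contralateral vein. A gene was called where edgeR's quasi-likelihood test gave a Benjamini–Hochberg adjusted *p* under 0.01 and the absolute log2 fold change was at least 1. In early AVFs against contralateral veins 2 of the 10 genes were called, beside 12.6% of all genes tested. In mid AVFs 3 were called, beside 6.05% of all genes, with *Fkbp10* as the third. In late AVFs 2 were called, beside 5.33% of all genes. The median log2 fold change of the 10 genes was 0.54, 0.51, and 0.40 at the early, mid, and late times, where that of all genes tested was −0.01, −0.10, and −0.09. The comparisons share their contralateral veins, so they are not independent of each other.

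All early AVFs lay above all contralateral veins for 1 of the 10 genes, beside 4.47% of all genes tested, and below them for 1, beside 2.34%. All mid AVFs lay above for 4 (*P4hb*, *P4ha3*, *Fkbp10*, and *Bmp1*), beside 7.32% of all genes, and below for 1, beside 4.69%. All late AVFs lay above for 1, beside 6.25% of all genes, and below for 1, beside 4.25%. In bulk tissue, fewer cells of a type and less RNA per cell cannot be told apart.

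**Figure D1:**
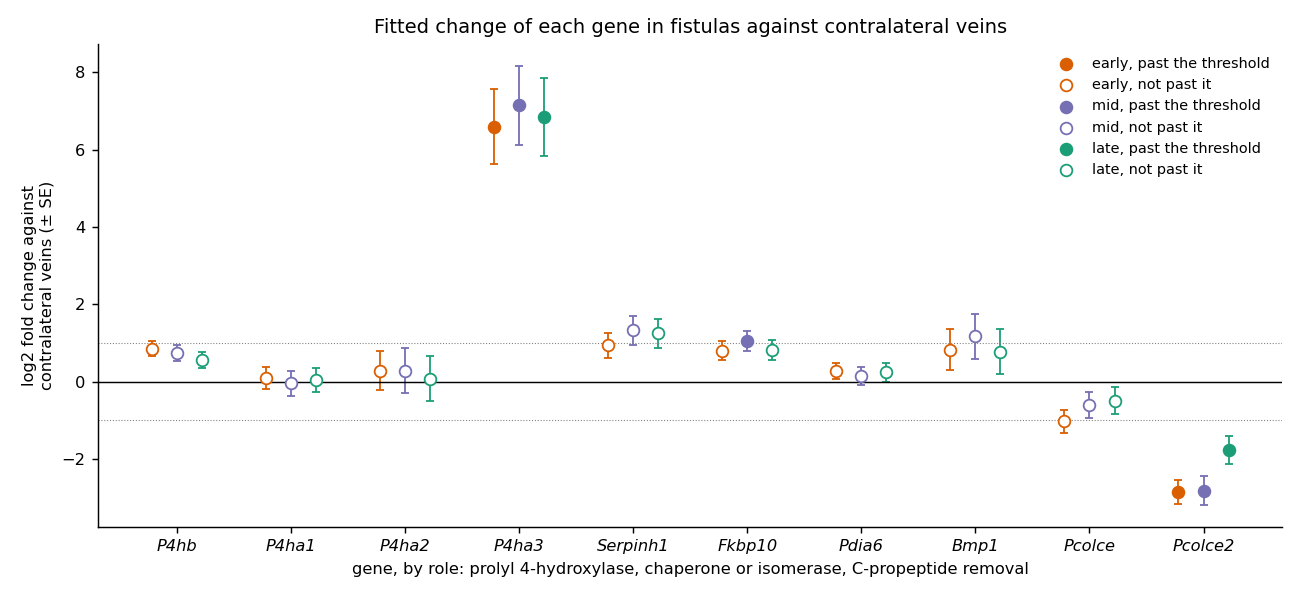
Log2 fold change of each of the 10 genes against contralateral veins at the 3 time points, with its error. *P4ha3* lies far to the positive side and *Pcolce2* to the negative side at each time.

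**Figure D2:**
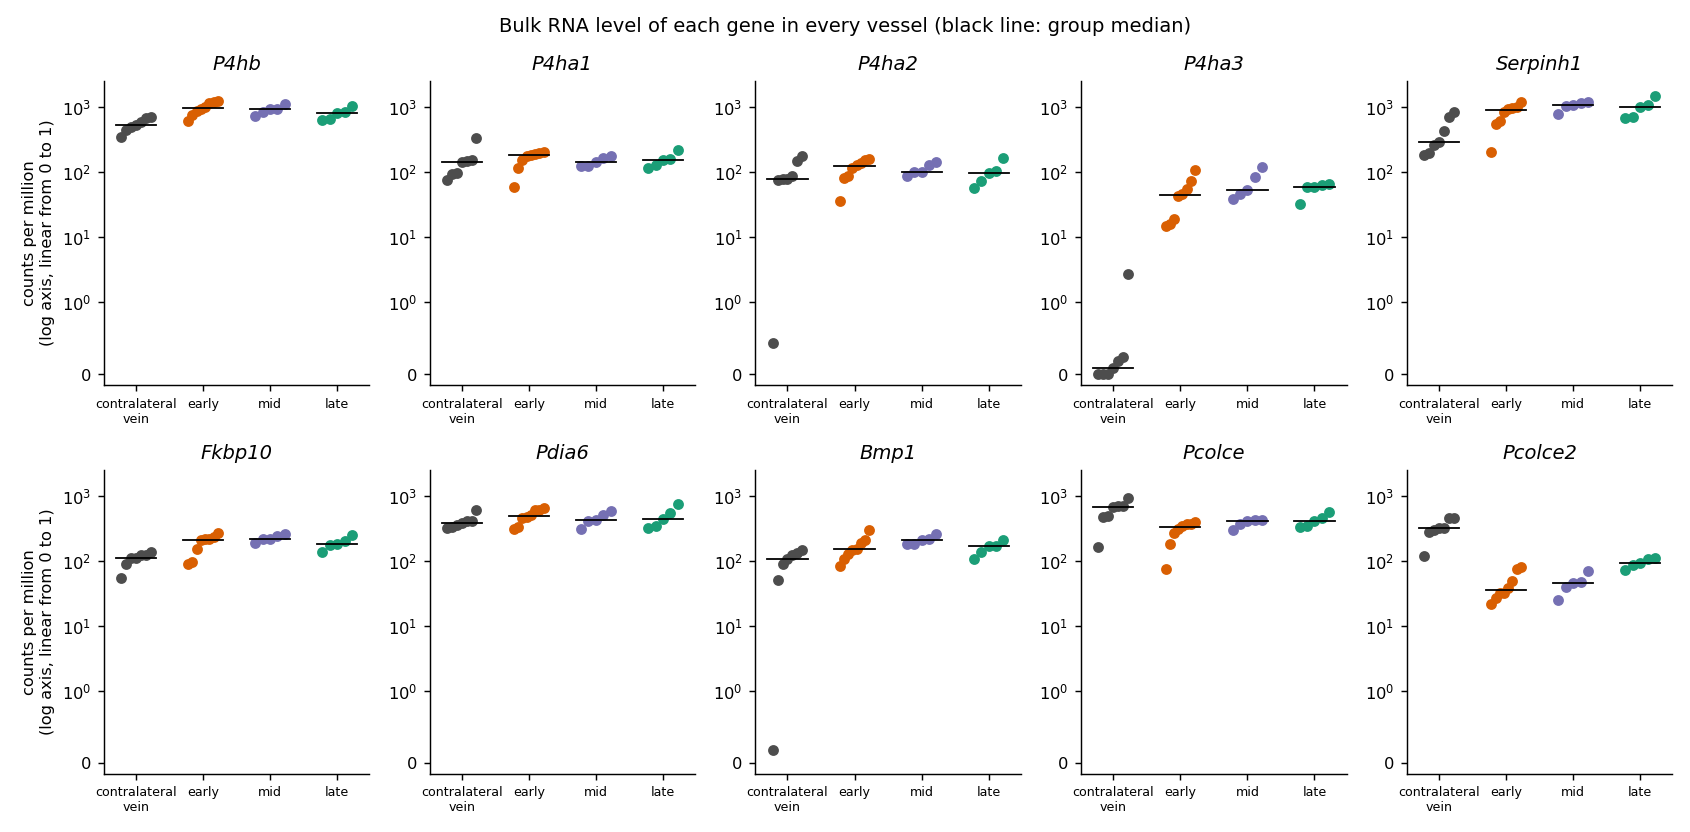
Level of each gene in CPM in each of the 25 bulk libraries, by group. The points of *P4ha3* and *Pcolce2* in AVFs do not overlap those in contralateral veins.

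*P4ha3* encodes 1 of the 3 alpha subunits, which carry the catalytic site of prolyl 4-hydroxylase. In contralateral veins its lowest, median, and highest levels were 0, 0.0876, and 2.72 CPM, with 79 of the group's 91 counts in vein 633 and 0 counts in veins 28, 35, and 632. Early AVFs had 14.5, 44.3, and 107 CPM as lowest, median, and highest. The levels in mid AVFs 9, 12, 13, 14, and 15 were 45.8, 52.6, 83.7, 118, and 38.5 CPM, and those in late AVFs 16, 17, 19, 23, and 24 were 57.6, 32.4, 63.6, 66.3, and 57.6 CPM. Every AVF was above every contralateral vein, and the lowest AVFs were the early AVFs 5, 6, and 7. The gene rose in early AVFs by a log2 fold change of 6.60 (SE 0.98, edgeR adjusted *p* = 1.52e-05). The rise was 7.15 in mid AVFs (SE 1.02, edgeR adjusted *p* = 2.59e-05) and 6.86 in late AVFs (SE 1.01, edgeR adjusted *p* = 4.62e-05). Because the gene passed the filter only through the AVFs, these tests give no independent support for a difference and describe the levels above. With no filter on low counts the gene was called at each time too. With so few contralateral counts the size rests on vein 633, and without it the values were 9.02, 9.56, and 9.28.

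*P4hb* encodes the beta subunit, which is protein disulfide isomerase. Its lowest, median, and highest levels were 349.7, 536, and 699 CPM in contralateral veins and 607, 974, and 1247 CPM in early AVFs. In the same order of libraries as above, mid AVFs had 922, 716, 830.3, 937, and 1119 CPM and late AVFs had 809, 1024, 843, 618, and 659 CPM. Of the AVFs, 7 of 8 early, all mid, and 3 of 5 late ones were above the highest contralateral vein. The log2 fold change in early AVFs was 0.85 (SE 0.19, edgeR adjusted *p* = 0.00141), which passes the limit on *p* and not the limit on size. It was 0.75 in mid AVFs (SE 0.21, edgeR adjusted *p* = 0.0157) and 0.55 in late AVFs (SE 0.21, edgeR adjusted *p* = 0.0803).

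*P4ha1* and *P4ha2* encode the other alpha subunits, and their levels overlapped between contralateral veins and AVFs at each time. The medians of *P4ha1* were 143, 179, 141, and 152 CPM in contralateral, early, mid, and late vessels, over a range of 58.6 CPM in early AVF 7 to 335 CPM in vein 28. Those of *P4ha2* were 79.0, 122, 101, and 94.8 CPM, over a range of 0.437 CPM in vein 28 to 177 CPM in vein 35. The log2 fold changes of *P4ha1* were 0.09, −0.04, and 0.05 in early, mid, and late AVFs (SE 0.28 to 0.32, edgeR adjusted *p* of 0.854, 0.958, and 0.945). Those of *P4ha2* were 0.28, 0.28, and 0.08 (SE 0.51 to 0.58, edgeR adjusted *p* of 0.753, 0.822, and 0.953). Without the 4 veins that had many genes at no count, a fit added after seeing the data, the values of *P4ha2* had the opposite sign. Those of *P4ha1* in early AVFs ranged from −0.11 to 0.45 with 1 library left out and from −0.35 to 0.39 over the other settings.

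*Serpinh1* encodes the collagen-specific chaperone, known as HSP47. Its lowest, median, and highest levels were 184, 284, and 828 CPM in contralateral veins and 203, 885, and 1177 CPM in early AVFs. Mid AVFs had 1058, 778, 1019.9, 1133, and 1171 CPM and late AVFs 1056, 1452, 989.7, 682, and 698 CPM. The groups overlapped at each time, in mid AVFs only through vein 632, the highest contralateral vein, and 5 of 8 early, 4 of 5 mid, and 3 of 5 late AVFs were above it. The log2 fold changes were 0.94 in early (SE 0.33, edgeR adjusted *p* = 0.0412), 1.33 in mid (SE 0.37, edgeR adjusted *p* = 0.0157), and 1.25 in late AVFs (SE 0.37, edgeR adjusted *p* = 0.0253), none of them called. Without vein 632 the gene was called at each time, at 1.21, 1.60, and 1.52, and without vein 633 or early AVF 7 it was called in mid AVFs, at 1.51 and 1.33. In female mice alone it was called at 2.08 in mid and 2.17 in late AVFs. Veins 632 and 633 are the only male contralateral veins. The fit in female mice leaves both out, so these results are not independent of each other. DESeq2 called it in mid and late AVFs, with adjusted *p* of 0.00437 and 0.00869, within ranges over the other settings of 0.00437 to 0.0480 and 0.00692 to 0.0641.

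*Fkbp10* encodes a prolyl isomerase of the endoplasmic reticulum that acts on procollagen. Its lowest, median, and highest levels were 53.4, 111, and 137 CPM in contralateral veins and 89.0, 211, and 269.7 CPM in early AVFs. Mid AVFs had 214, 184, 217, 239, and 254 CPM and late AVFs 181, 245, 199, 136, and 172 CPM. All mid AVFs, 6 of 8 early AVFs, and 4 of 5 late AVFs were above the highest contralateral vein. In mid AVFs the gene rose, with a log2 fold change of 1.06 (SE 0.26, edgeR adjusted *p* = 0.00706). The log2 fold change was 0.80 in early AVFs (SE 0.24, edgeR adjusted *p* = 0.0148) and 0.81 in late AVFs (SE 0.26, edgeR adjusted *p* = 0.0415). The call in mid AVFs was lost without contralateral vein 34 or 35, early AVF 10, mid AVF 9, 13, 14, or 15, or late AVF 19 or 23, with log2 fold changes of 1.03, 0.88, 1.00, 1.07, 1.01, 1.03, 1.01, 1.00, and 1.00 in that order.

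*Pdia6* encodes a disulfide isomerase that serves many secreted proteins, and its levels overlapped between groups throughout. Its medians were 381, 482, 422, and 438 CPM in contralateral, early, mid, and late vessels, over a range of 302 to 736 CPM. The log2 fold changes were 0.28, 0.15, and 0.24 in early, mid, and late AVFs (SE 0.21 to 0.24, edgeR adjusted *p* of 0.369, 0.757, and 0.587), and the early value was −0.08 in female mice alone.

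*Pcolce2* encodes the second of the enhancer proteins that bind procollagen and speed its cleavage. Its lowest, median, and highest levels were 119, 313, and 456 CPM in contralateral veins and 21.2, 35.0, and 80.1 CPM in early AVFs. Mid AVFs 9, 12, 13, and 14 had 39.6, 46.4, 68.7, and 45.2 CPM, mid AVF 15 was the lowest of its group with 897 counts, and late AVFs had 91.9, 108, 106, 86.9, and 71.9 CPM. Every AVF was below every contralateral vein, the nearest being vein 35 and late AVF 17. The gene fell by a log2 fold change of −2.85 in early AVFs (SE 0.31, edgeR adjusted *p* = 1.43e-07). It fell by −2.82 in mid AVFs (SE 0.37, edgeR adjusted *p* = 7.04e-06) and by −1.77 in late AVFs (SE 0.35, edgeR adjusted *p* = 0.00128). In female mice alone, whose early AVFs are 6, 7, and 10, the values were −2.33, −2.46, and −1.31 and none was called.

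*Pcolce* encodes the first enhancer protein. Its lowest, median, and highest levels were 163, 679, and 929 CPM in contralateral veins and 74.5, 326, and 386 CPM in early AVFs. Mid AVFs 12, 13, 14, and 15 had 293, 369, 408, and 417 CPM, mid AVF 9 was the highest of its group with 12295 counts, and late AVFs had 446, 569, 400.4, 333, and 338 CPM. Early and mid AVFs overlapped contralateral veins only through vein 35, the lowest vein for both *Pcolce* and *Pcolce2*, and of the late AVFs number 17 overlapped other veins too. The log2 fold changes were −1.03 in early (SE 0.29, edgeR adjusted *p* = 0.0118), −0.61 in mid (SE 0.34, edgeR adjusted *p* = 0.263), and −0.49 in late AVFs (SE 0.34, edgeR adjusted *p* = 0.398). The early value was called without vein 35 at −1.28, without mid AVF 13 at −1.12, and without late AVF 19 or 23 at −1.12. It was also called by DESeq2, with an adjusted *p* of 0.00376 in a range over the other settings of 0.00376 to 0.449, and over these settings its log2 fold change was −1.55 to −0.37. The value nearest 0 came without the 4 veins that had many genes at no count, where the mid and late values turned to 0.05 and 0.18.

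*Bmp1* encodes the metalloproteinase that cuts the propeptide. Its lowest, median, and highest levels were 0.175, 105, and 146 CPM in contralateral veins and 82.9, 149, and 296 CPM in early AVFs. Mid AVFs had 178, 255, 183, 214, and 206 CPM and late AVFs 107, 136, 167, 208, and 167 CPM. All mid AVFs were above all contralateral veins, as were 5 of 8 early and 3 of 5 late AVFs. The log2 fold changes were 0.83 in early (SE 0.53, edgeR adjusted *p* = 0.283), 1.17 in mid (SE 0.58, edgeR adjusted *p* = 0.207), and 0.77 in late AVFs (SE 0.58, edgeR adjusted *p* = 0.447). Vein 31 had 4 counts of the gene. Without it the log2 fold change was 0.57 in early and 1.03 in mid AVFs, each the lowest value with 1 library left out. The errors of these fits are not given, so whether vein 31 accounts for the large errors is not shown.

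Between the AVF groups edgeR called 0 of the 10 genes in each comparison. For mid against early AVFs, edgeR called 0.00789% of all genes. An unadjusted edgeR *p* under 0.05 was found for 0 of the 10, beside 1614 of all 12673 genes. DESeq2 called 0 of the 10, beside 447 of all genes. For late against early AVFs, edgeR called 3.01% of all genes. An unadjusted edgeR *p* under 0.05 was found for 1 of the 10, beside 2016 of all 12673 genes. DESeq2 called 1 of the 10, beside 737 of all genes. For late against mid AVFs, edgeR called 0% of all genes. An unadjusted edgeR *p* under 0.05 was found for 1 of the 10, beside 39 of all 12673 genes. DESeq2 called 0 of the 10, beside 1 of all genes. The gene in question was *Pcolce2*, whose late levels were nearer to those of contralateral veins, and 4 of the 5 late AVFs were above all early and mid AVFs. Its log2 fold change was 1.08 for late against early (SE 0.32, edgeR adjusted *p* = 0.0339) and 1.05 for late against mid (SE 0.36, edgeR adjusted *p* = 1.000).

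Ratios of counts of 2 genes within a library do not depend on its scaling. The ratio of *Pcolce2* to *Pcolce* counts had a lowest, median, and highest value of 0.316, 0.662, and 0.925 in contralateral veins and 0.0686, 0.0937, and 0.642 in early AVFs. It was 0.0599, 0.111, and 0.186 in mid and 0.191, 0.213, and 0.265 in late AVFs, so *Pcolce2* was lower relative to *Pcolce* in every mid and late AVF than in any contralateral vein, and early AVFs 6 and 7 overlapped. The ratio of *P4ha3* to *P4ha1* counts was 0, 0.000943, and 0.0190 in contralateral veins and 0.101, 0.255, and 0.925 in early AVFs. It was 0.222, 0.423, and 0.954 in mid and 0.148, 0.418, and 0.514 in late AVFs, and no AVF overlapped a contralateral vein. The ratio of *Serpinh1*, the collagen chaperone, to *Pdia6*, the general isomerase, had medians of 0.626, 1.59, 2.48, and 2.05 in contralateral, early, mid, and late vessels, and its highest contralateral value of 2.08 overlapped each AVF group.

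Male and female mice were compared in their change from contralateral veins, with only 2 male veins. None of the 10 genes had an edgeR adjusted *p* under 0.05 for this difference. The smallest was that of *Serpinh1* in late AVFs, with a log2 difference of −2.25 for male minus female (edgeR adjusted *p* = 0.189). For *P4ha3* the differences were −3.64, −4.37, and −3.40 in early, mid, and late AVFs (edgeR adjusted *p* of 0.415, 0.690, and 0.688). The 2 male veins are 632 and 633, and vein 633 held 79 of the 91 contralateral counts of *P4ha3*. The male side of these differences therefore rests on vein 633 in contralateral veins.

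Other steps of collagen making were followed in 7 related lists, whose counts stand beside 12.6%, 6.05%, and 5.33% of all genes called either way in early, mid, and late AVFs. Among lysyl hydroxylases and collagen glycosyltransferases, 1 of 4 genes tested was called higher in early AVFs, *Plod2*, whose lowest, median, and highest levels were 0.375, 23.5, and 118 CPM in contralateral veins and 42.5, 142, and 210.3 CPM in early AVFs (log2 fold change 1.94, edgeR adjusted *p* = 0.00983). Its log2 fold change was of similar size but not called in mid AVFs (2.20, edgeR adjusted *p* = 0.0128) and late AVFs (1.88, edgeR adjusted *p* = 0.0344). Among 6 fibrillar collagen chains, *Col5a3* was called higher in early AVFs, *Col5a1*, *Col5a2*, and *Col5a3* in mid AVFs, and *Col5a2* in late AVFs, and the list's median log2 fold change was 0.59, 1.52, and 1.32. *Col5a3* had log2 fold changes of 2.55, 3.02, and 2.58 in early, mid, and late vessels (edgeR adjusted *p* of 0.00988, 0.00903, and 0.0260), so its value was as large where it was not called. *Col5a1* was named after its values were seen. *Col5a2* had 217, 507, and 655 CPM as lowest, median, and highest in contralateral veins and 1076, 1388, and 1626 CPM in mid AVFs, without overlap (log2 fold change 1.64, edgeR adjusted *p* = 0.000989).

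Among 5 other FK506-binding isomerases of the endoplasmic reticulum, relatives of *Fkbp10*, *Fkbp11* was called higher in early AVFs, *Fkbp7* and *Fkbp9* lower in early AVFs, and *Fkbp7* lower in mid and late AVFs, with *Fkbp9* named after its values were seen. *Fkbp7* had 239, 303, and 619.8 CPM as lowest, median, and highest in contralateral veins and 42.9, 127, and 208 CPM in early AVFs, without overlap (log2 fold change −1.44, edgeR adjusted *p* = 8.55e-05). Among 13 general chaperones of the endoplasmic reticulum, which work beside *P4hb* and *Pdia6*, 2 were called higher in early AVFs, beside the 12.6% over all genes, and edgeR called 0 in mid and late AVFs. They were *Manf*, with log2 fold changes of 1.16, 0.13, and 0.08 at the 3 times (edgeR adjusted *p* of 0.00307, 0.845, and 0.906), and *Sdf2l1*, with 1.59, 0.95, and 1.26 (edgeR adjusted *p* of 0.00774, 0.192, and 0.0762). In the lists for the prolyl 3-hydroxylase complex (5 genes tested), for export of procollagen (9), and for other propeptide proteinases (4), edgeR called 0 genes at any time. The gene with the highest mean bulk CPM over all libraries was taken from each list as an example, which does not rank the levels because length is not adjusted for. These examples had log2 fold changes in early, mid, and late AVFs of −0.78, −0.70, and −0.17 (*Crtap*), 0.13, 0.59, and 0.61 (*Sec31a*), and −0.66, 0.57, and 0.41 (*Adamts2*). The proteinase list had a median of 0.47, 1.32, and 0.95 and was mixed. *Adamts3* was at 2.19, 3.27, and 2.46, *Adamts14* at 1.59, 2.07, and 1.48, and *Tll1* at −1.52, −1.33, and −1.35. All were named after their values were seen, and none of them was called. *Adamts3* had a mean of 0.872 CPM in contralateral veins. Like *P4ha3*, it passed the filter only through the AVFs, so its value had to be positive. Without it the list's median is the value of *Adamts2* at each time, which is negative in early AVFs.

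Marker genes of cell types moved with the groups in which *P4ha3* and *Pcolce2* differed. The summed CPM of 9 fibroblast markers had a median of 36946 in contralateral veins and of 23846, 50642, and 40258 in the 3 AVF groups. Of the 9 genes, 5, 1, and 0 were called lower at the 3 times and 0 were called higher. The sum leans on *Col3a1*, the most abundant of them, with medians of 10555 CPM in contralateral veins and 25927 CPM in mid AVFs. Over the 9 genes the median log2 fold change was −1.48, −0.19, and 0.14, so in mid AVFs it had the opposite direction to the sum. Early AVFs 5, 6, and 7, the lowest for *P4ha3*, also had the lowest fibroblast sums of all libraries (11036, 5751, and 3526), and early AVF 10, the highest of its group for *P4ha3*, had the highest fibroblast sum of that group (38601). In mid AVFs the order was shared in part, since AVFs 13 and 14 had high sums (50642 and 55555) and the highest mid *P4ha3*, while AVF 15 had the highest sum (57803) and the lowest mid *P4ha3*. Late AVF 17 had the highest sum of all libraries (70025) and the lowest late *P4ha3*. For smooth muscle the medians were 5959, 474, 918, and 1172, and for endothelium they were 2889, 611, 766, and 839.5, without overlap between contralateral veins and AVFs in either list. Monocyte and macrophage markers had medians of 1892, 6156, 3554, and 3758, with 8, 0, and 0 of 10 called higher. Neutrophil markers had medians of 139, 1448, 383, and 194. Adipocyte markers had medians of 5488, 1317, 1134, and 886, lower in AVFs as *Pcolce2* was, with overlap between the groups. Platelet markers had medians of 358, 1871, 377, and 427 and reached 9369, 12695, and 2598 in early AVFs 5, 6, and 7, the lowest for *P4ha3*, and 4108 in early AVF 3. Erythroid markers had medians of 5814, 3475, 2625, and 900.3, with all 5 called lower in late AVFs and no overlap there with contralateral veins. Mast cell markers had medians of 318, 39.8, 46.9, and 68.6, with overlap at each time. Skeletal muscle markers had medians of 16.0, 319, 1847, and 797 and reached 10608 in a late AVF. Whether these shifts account for any difference among the 10 genes was not tested.

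In single cells, 6319 of 11563 barcodes were kept from contralateral veins, 4753 of 7074 from early AVFs, and 5821 of 7801 from late AVFs. The libraries differed in depth, with 29211542, 55802324, and 98421120 unique molecular identifiers (UMIs) and medians of 2751, 8951, and 15425 per cell. Levels are again CPM, the gene's UMIs over all UMIs of the cell type in the library, and can be compared between genes. With 1 library per group there is no test between groups, and the 95% intervals given, exact Poisson for levels and ratios and Clopper-Pearson for shares, cover counting error only. Fibroblasts were 1866 cells in contralateral veins (29.5%), 397 in early AVFs (8.35%), and 1963 in late AVFs (33.7%). The cluster with most contralateral fibroblasts (1708 cells) held 5 cells of early AVFs, and another cluster held 392 of the early and 1908 of the late ones, so library and cluster go together. A shallow cluster of 39, 531, and 438 cells was left unnamed by the marker rule. Its leading genes were mixed: *Pth*, *Cthrc1*, *Hp*, *Postn*, *Lyz2*, *Col1a1*, *Eln*, *Spp1*, *Igkc*, and *Cxcl5*.

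Background RNA was visible in cells that make no collagen. *Col1a1* was at 431, 413, and 504 CPM in T cells of the 3 libraries, where fibroblasts had 18705, 25371, and 10414 CPM. *Pcolce2* was at 17.0, 1.57, and 7.41 CPM in T cells, so low levels of the 10 genes in other cell types may be background.

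**Figure D3:**
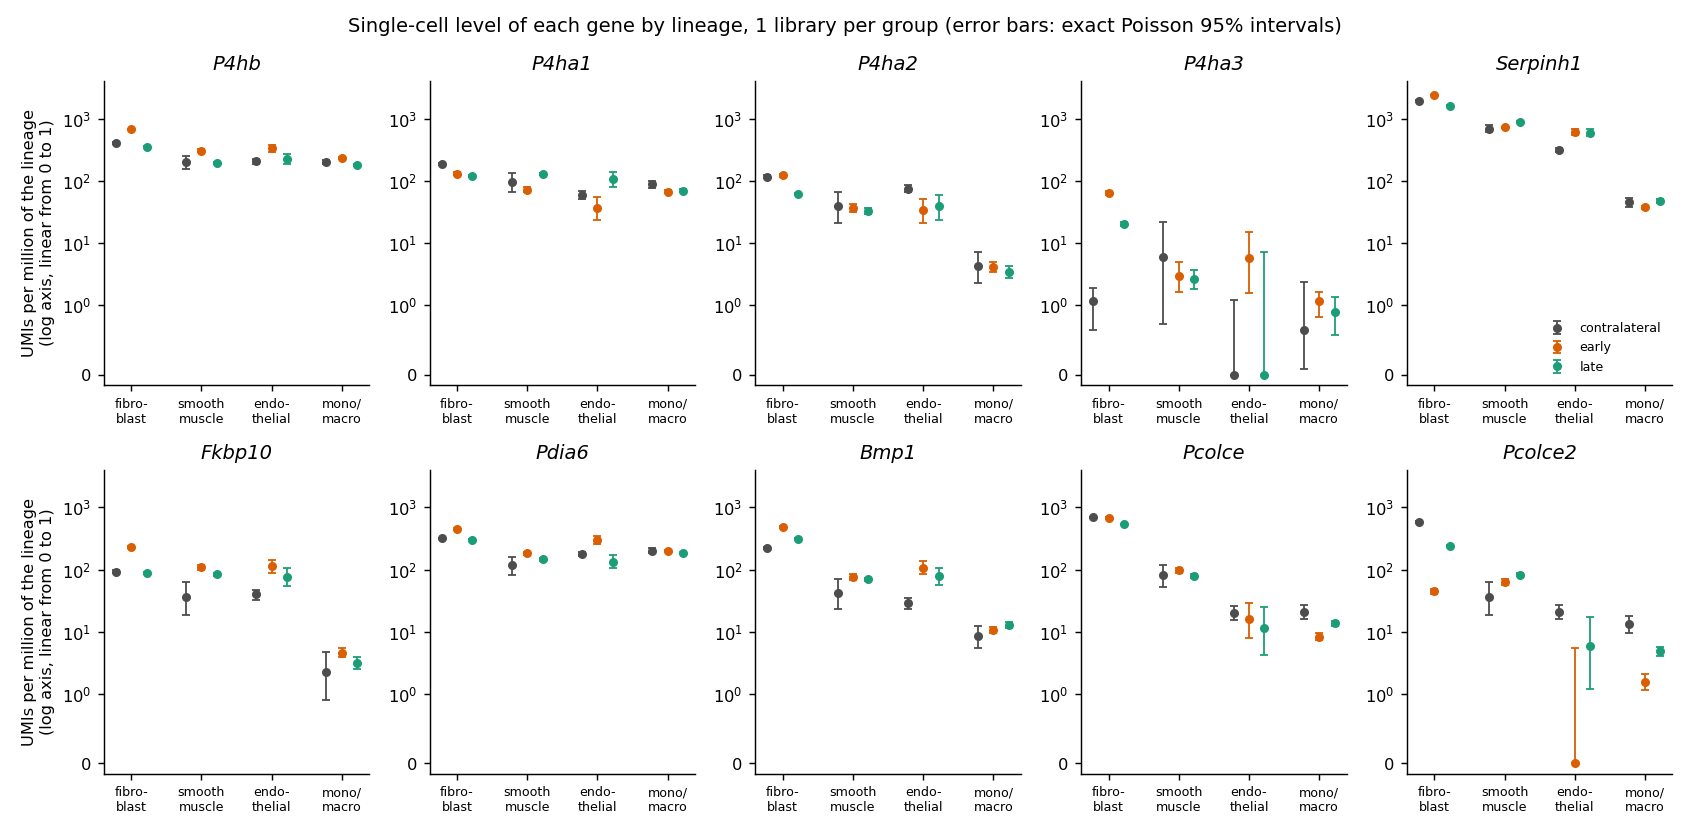
Level of each of the 10 genes in CPM of UMIs by library in the main lineages, with exact 95% intervals that cover counting error only. Fibroblasts hold the highest levels of most of the genes.

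Within fibroblasts, *P4ha3* and *Pcolce2* again showed the largest differences between libraries. *P4ha3* was at 1.16 CPM in contralateral fibroblasts (0.648 to 1.91, 15 UMIs), 63.0 CPM in early ones (58.5 to 67.8, 721 UMIs), and 20.3 CPM in late ones (19.1 to 21.6, 1018 UMIs). The ratio was 54.4 for early over contralateral (32.8 to 97.7) and 0.323 for late over early (0.293 to 0.356), so *P4ha3* was lower in late than in early fibroblasts. The early and late groups of the single-cell and bulk data were taken at different mean days, so their levels are not set side by side. *Pcolce2* was at 578 CPM in contralateral (565 to 592), 44.6 CPM in early (40.8 to 48.6), and 240.2 CPM in late fibroblasts (236 to 244). Its ratio was 0.0771 for early over contralateral (0.0703 to 0.0843), 0.415 for late over contralateral (0.403 to 0.427), and 5.39 for late over early (4.93 to 5.90).

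Of the 10 genes, 4 differed by at least 2-fold in early over contralateral fibroblasts, beside 27.3% of all genes with enough UMIs. In late over contralateral fibroblasts there were 2, *P4ha3* and *Pcolce2*, beside 25.1% of all genes. In late over early fibroblasts there were 3, *P4ha3*, *Pcolce2*, and *Fkbp10*, beside 14% of all genes. The median ratio of the 10 genes was 1.32, 0.854, and 0.661 in these comparisons, where that of all genes was 0.858, 0.797, and 0.931.

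The other genes past 2-fold in early fibroblasts were *Fkbp10* and *Bmp1*. *Fkbp10* was at 91.8 CPM in contralateral (86.7 to 97.2), 227 CPM in early (218 to 236), and 88.0 CPM in late fibroblasts (85.4 to 90.6), so its late level was near the contralateral one. *Bmp1* was at 221 CPM (213 to 229.5), 485 CPM (472 to 498), and 313 CPM (308 to 318). The chaperone gene *Serpinh1* had the highest level in each library, at 1933, 2392, and 1619 CPM, and *Pcolce* the next, at 691, 675, and 538 CPM, although in early fibroblasts *P4hb* was within its interval. *P4hb* had 406, 667, and 354 CPM and *Pdia6* had 315, 445, and 301 CPM, both highest in early fibroblasts. *P4ha1* had 188, 130.1, and 119.6 CPM and *P4ha2* had 117, 123, and 61.7 CPM, both lowest in late fibroblasts.

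Fibroblasts held most of the UMIs of some genes and less of those of general use. They held 96.3% of the *Pcolce2* UMIs in the contralateral library, 54.8% in the early, and 90.4% in the late one, and for *P4ha3* 85.1% in the early and 93.4% in the late one. In the contralateral library 15 of 21 *P4ha3* UMIs were from fibroblasts, too few to compare with the other shares. For *Serpinh1* the shares were 90.5%, 77.6%, and 84.9%. For *P4ha1* they were 73.1%, 35.1%, and 60.2%, and monocytes and macrophages held 46.6% of the *P4ha1* and 43.0% of the *Pdia6* UMIs of the early library.

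In smooth muscle cells, 35, 251, and 550 in number, *Fkbp10* was at 36.0, 108, and 83.6 CPM, a ratio of 3.01 for early over contralateral (1.71 to 5.86). *Pcolce2* in these cells was at 36.0 CPM (18.6 to 62.9, 12 UMIs), 62.7 CPM (56.0 to 70.0), and 83.2 CPM (78.3 to 88.4), a ratio of 1.74 for early over contralateral whose interval includes 1 (0.984 to 3.41). The ratio for late over contralateral was 2.31 (1.32 to 4.49), above 1 where that of fibroblasts was below 1, and smooth muscle cells held 34.1% of the *Pcolce2* UMIs of the early library. In endothelial cells, 807, 68, and 76 in number, *Bmp1* was at 28.7, 107, and 77.9 CPM and *Fkbp10* at 39.8, 113, and 76.0 CPM. *P4ha3* in smooth muscle was at 6.00, 2.97, and 2.65 CPM, the first of them from 2 UMIs. In monocytes and macrophages *P4hb* was at 201, 233, and 178 CPM and *P4ha1* was at 87.6 CPM in the contralateral and 69.8 CPM in the late library, with an early over contralateral ratio of 0.765 (0.673 to 0.872), while *P4ha2* stayed between 3.41 and 4.23 CPM.

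Shares of UMIs within fibroblasts compare genes of the same role. *P4ha3* made up 0.378% of alpha subunit UMIs in contralateral fibroblasts (0.212% to 0.623%, 15 of 3964), 19.9% in early (18.6% to 21.3%, 721 of 3618), and 10.1% in late ones (9.51% to 10.7%, 1018 of 10086). *P4ha1* made up 61.4%, 41.1%, and 59.3%, and *P4ha2* 38.2%, 38.9%, and 30.6%. *Pcolce2* made up 45.6% of the UMIs of *Pcolce* and *Pcolce2* together in contralateral (44.8% to 46.3%), 6.20% in early (5.68% to 6.74%), and 30.9% in late fibroblasts (30.4% to 31.3%). In monocytes and macrophages *P4ha1* made up 94.7%, 92.6%, and 94.2% of alpha subunit UMIs.

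Fibroblasts were clustered again without the 10 genes and the marker lists, and sub-clusters were named from lists of fibroblast states. The sub-cluster named activated (558 cells, 287 of them early and 269 late) had the highest *P4ha3*, at 64.1 CPM (60.2 to 68.2), and *Pcolce2* at 27.8 CPM (25.3 to 30.5). All 5 markers of the activated list were raised in it, and *Tnc* and *Postn* were among its leading genes. Its first leading gene was *Thbs4*, which is on the list for the late state, as is *Cilp*, another leading gene. Of the sub-clusters named adventitial, the smaller (166 cells) had the highest *Pcolce2*, at 819.5 CPM (779.8 to 861), and *P4ha3* at 9.25 CPM. In those named quiescent, *P4ha3* was between 0 and 6.82 CPM and *Pcolce2* between 366 and 633 CPM. Within the activated sub-cluster, *P4ha3* was at 77.6 CPM in early and 49.4 CPM in late cells, and *Pcolce2* at 14.9 CPM in early and 41.0 CPM in late cells. The larger adventitial sub-cluster had *Pcolce2* at 77.4 CPM in 38 early cells and 249 CPM in 615 late cells, and *P4ha3* at 17.1 and 17.7 CPM. Between contralateral and late cells *Pcolce2* was similar within some sub-clusters, each with few cells on 1 side. In the smaller adventitial one it was at 848 CPM (801 to 896) in 139 contralateral cells and 822 CPM (734 to 917) in 23 late cells. In the larger one named late it was at 253 CPM (187 to 335) in 22 contralateral cells and 257 CPM (249 to 266) in 591 late cells. The sub-clusters named quiescent, which held most contralateral fibroblasts, had too few late cells for this comparison. In an unnamed sub-cluster of 86 cells *Pcolce2* was at 414 CPM (325 to 519) in 20 contralateral cells and 144 CPM (125 to 165) in 55 late cells. The leading genes of this sub-cluster include *S100a9*, *S100a8*, and *Il1b*, which also lead the neutrophil cluster. Doublets were kept, and whether these cells are doublets was not tested.

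**Figure D4:**
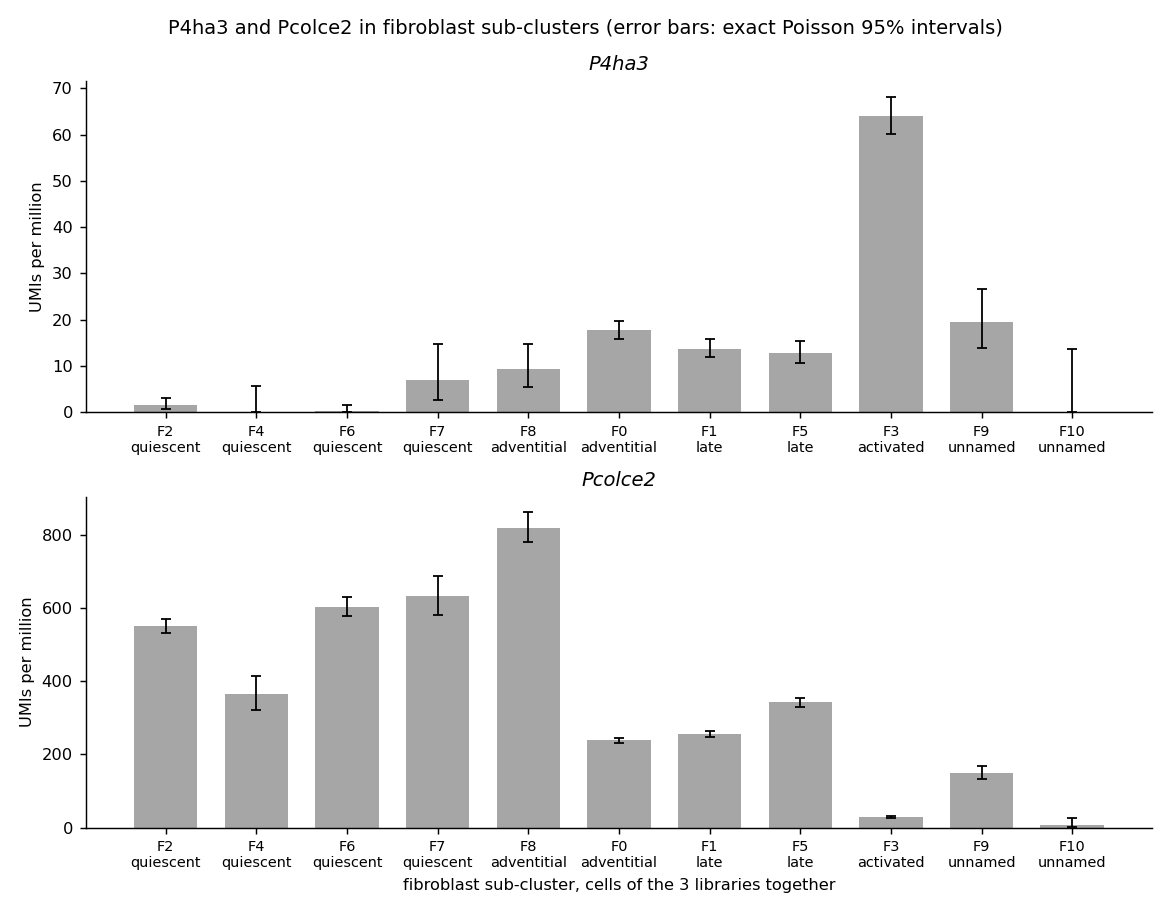
Levels of *P4ha3* and *Pcolce2* in fibroblast sub-clusters, in CPM of UMIs with exact 95% intervals. The sub-cluster named activated has the highest *P4ha3* and a low *Pcolce2*.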

How the data were processed

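The bulk values are raw counts per gene, which the authors deposited as 1 table of 25 libraries. The submitters' processing notes name STAR and the build mm10 (GRCm38), and the sources used here name neither the counting program nor the annotation release. The single-cell values are UMI counts per gene and barcode, deposited as 3 matrices made with Cell Ranger 6.0.2 per the file headers. Bulk counts were scaled by TMM on the 12673 genes tested and compared with edgeR 4.0.16 (quasi-likelihood test, Benjamini–Hochberg adjustment) in R 4.3.3, and DESeq2 1.42.0 was run as an alternative. The p-values measure the spread between vessels. The common dispersion was 0.71. Gene symbols of the bulk table came from the single-cell gene list for 32210 identifiers and from the reference annotation for 19962. Cells with 200 to 6000 genes and at most 10% mitochondrial UMIs were kept, and clustered with scanpy 1.11.5 and leidenalg 0.10.2 on 2000 variable genes, 12 principal components and 20 neighbours at resolution 0.5. The scripts were tested on simulated data. Scrublet marked 0, 2, and 120 cells as doublets in the contralateral, early, and late libraries, so it did not work for the first 2, and doublets were kept. The libraries shared 19 barcodes (contralateral and early), 14 (contralateral and late), and 16 (early and late). Named genes are all 10 members and, from each related list, up to 2 called genes with the largest change in early and in late AVFs, or else the gene with the highest mean CPM; genes outside this rule are marked as named after their values were seen. Members and lists were chosen with earlier results of these data known, and the 8 promoter patterns were chosen after matches of a wider set had been seen. Alternatives were another normalization, test, filter, and threshold, sex as a term, female mice only, each library left out in turn, and 4 single-cell settings.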

Additional observations from a re-analysis of the deposited data

Results flagged for a closer look

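A level was singled out where 1 library lay far from the others of its group by Dixon's ratio on the log scale, with a pseudocount of 1. The test was run on 40 groups, of which it picks out about 1 in 20 by chance, and it picked out 11.

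Early AVF 7 was low for *P4ha1* (ratio 0.550), *P4ha2* (0.546), *Serpinh1* (0.567), and *Pcolce* (0.539). Contralateral vein 28 was low for *P4ha2* (0.826) and high for *Pdia6* (0.573). Contralateral vein 35 was low for *Pcolce* (0.611) and *Pcolce2* (0.634). Contralateral vein 633 was high for *P4ha3* (0.838), vein 31 was low for *Bmp1* (0.782), and late AVF 17 was low for *P4ha3* (0.801).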

How the results depend on the processing

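*P4ha3* kept its call at each time under all settings, with no filter among them, but it passed the filter used only through the AVFs, so this is no independent support. Over the other settings its log2 fold change was 5.55 to 8.79 in early, 6.10 to 9.58 in mid, and 5.81 to 8.94 in late AVFs. *Pcolce2* was called at each time except in female mice alone. No paired analysis was possible because the groups share no replicate numbers.

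Members called became 1 in early AVFs in female mice, and 1 for late against early AVFs by DESeq2 and at an adjusted *p* under 0.05. With 1 library left out they were 2 to 3 in early, 2 to 4 in mid, and 2 to 3 in late AVFs, and 0 between AVF groups.

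Genes called in early AVFs were 2415 by DESeq2, 3803 with filterByExpr, 3938 with no filter, 327 in female mice, and 2520 at an adjusted *p* under 0.05. In mid AVFs they were 1411, 2823, 2728, 192, and 1421 under these settings, and in late AVFs 1289, 2696, 2567, 173, and 1304. Without the 4 veins with many genes at no count, a setting chosen after seeing the data, they were 1299 in mid and 1114 in late AVFs. For mid against early AVFs they were 447 by DESeq2, 0 with filterByExpr, 0 with a sex term, 0 in female mice, 5 without the 4 veins, and 482 at an adjusted *p* under 0.05. For late against early AVFs they were 737 by DESeq2, 208 with no filter, 0 in female mice, 1115 without the 4 veins, and 795 at an adjusted *p* under 0.05. For late against mid AVFs DESeq2 called 1.

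With 1 library left out, genes called were 1370 to 1825 in early, 530 to 955 in mid, and 432 to 889 in late AVFs, 0 to 305 for mid against early, 32 to 549 for late against early, and 0 for late against mid. The late count was lowest without late AVF 16 (432), 17 (435), or 24 (446). The count for late against early moved without early AVF 3 (186), 5 (156), or 6 (206) and late AVF 16 (32), 17 (34), 19 (40), 23 (151), or 24 (41). That for mid against early was 224, 177, 236, and 305 without early AVF 1, 2, 4, and 10, and 0 without veins 34, 35, 632, or 633, early AVF 3, 5, 6, or 7, mid AVF 9, 12, 13, or 14, or late AVF 16, 17, 19, or 23.

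Some small log2 fold changes turned sign. Without the 4 veins, *P4ha2* had −0.29, −0.29, and −0.48 in early, mid, and late AVFs, *P4ha1* 0.25 in mid AVFs, and *Pcolce* 0.05 in mid and 0.18 in late AVFs. In female mice *P4ha1* had −0.35 in early and 0.03 in mid AVFs, *P4ha2* −0.28 and *Pdia6* −0.08 in early AVFs, and *Pcolce2* −0.13 for mid against early. With 1 library left out, *P4ha1* ranged over −0.11 to 0.45 in early, −0.22 to 0.31 in mid, and −0.12 to 0.41 in late AVFs, *P4ha2* over −0.15 to 0.32 in late AVFs, and *Pcolce2* over −0.13 to 0.23 for mid against early.

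*Serpinh1* ranged over 0.73 to 1.21, 1.14 to 1.60, and 1.07 to 1.52 in early, mid, and late AVFs with 1 library left out, *Fkbp10* over 0.88 to 1.21 in mid AVFs, and *Pcolce* over −1.28 to −0.86 in early AVFs. *Serpinh1* was called in mid AVFs by DESeq2 (1.37), with filterByExpr (1.34), with a sex term (1.41), and in female mice (2.08), and in late AVFs by DESeq2 (1.28) and in female mice (2.17). *Fkbp10* lost its mid call with no filter (1.03) and in female mice (1.25). *Pcolce* was called in early AVFs by DESeq2 (−1.07) and with filterByExpr (−1.11). *Pcolce2* had −2.33, −2.46, and −1.31 in female mice. Fewer libraries remain in fits of 1 sex or without veins, and otherwise the cause was not tested. The single-cell counts past 2-fold stayed within 1.5 times. The few counts of *P4ha3* in contralateral veins limit the precision of its fold changes, and 1 library per group limits every single-cell comparison.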
